A study of Mus musculus with 6 samples.

Results

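MicroRNAs (miRNAs) best known from endocrine organs, brain and liver were followed in mouse thymus after small-RNA sequencing of the whole organ. They are mmu-miR-375-3p, mmu-miR-7a-5p, mmu-miR-7b-5p, mmu-miR-9-5p, mmu-miR-9-3p, mmu-miR-124-3p and mmu-miR-122-5p, taken by name from the count table, where 7 of 7 were found among 1390 mature miRNAs. The irradiated group held n = 3 C57BL mice aged 5 weeks that received 6 Gy of X-rays (800 cGy/min at 40 cm) and whose thymus was taken 24 h later. The control group held n = 3 C57BL mice of the same age with no irradiation. All mice were labelled wild-type, the substrain was not stated, and each library came from whole thymus rather than sorted cells. In such bulk RNA, fewer cells of a type and less of an miRNA per cell cannot be told apart. Nor can more of an miRNA be told from a larger share of the RNA that remains when other cells are lost.

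The thymic medulla holds epithelial cells that express genes of other organs, so that developing T cells meet those products and learn to tolerate them. Some medullary cells take on much of the program of a peripheral cell type and resemble neuroendocrine, muscle or secretory cells. MiR-375 is a pancreatic islet and neuroendocrine miRNA that restrains insulin secretion. MiR-7 is abundant in islets, pituitary and parts of the brain. MiR-9 acts in neural progenitors and neurons, miR-124 is the leading miRNA of mature neurons, and miR-122 is the leading miRNA of hepatocytes. A library of the whole organ does not show which cell a read came from.

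The sequences below show which reads could be confused with one another. Capitals mark the seed, bases 2 to 8, which does most of the target pairing. All are given 5′ to 3′ as in RefSeq (GRCm38.p6), and each was identical in the deposited table. RefSeq mature entries were at hand for 4 of the 7.
miR-7a-5p: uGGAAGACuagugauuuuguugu
miR-7b-5p: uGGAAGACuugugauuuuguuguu
miR-7a-1-3p: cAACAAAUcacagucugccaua
miR-7a-2-3p: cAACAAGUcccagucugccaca
miR-9-5p: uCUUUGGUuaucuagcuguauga
miR-9-3p: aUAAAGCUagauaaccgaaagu
miR-9b-3p: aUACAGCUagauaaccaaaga

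MiR-7a-5p and miR-7b-5p share a seed and differ at 1 aligned base, A10U counted from 1 at the 5′ end, with 1 more base at the 3′ end of miR-7b-5p. No further seed is shared between any of the 7 and another mature miRNA of the table. Assignment between miR-7a-5p and miR-7b-5p rests on those bases, and how the authors treated reads that matched both was not given. MiR-7a-5p comes from a pair of genes whose opposite strands tell the loci apart. MiR-7a-1-3p reports on Mir7-1, in an intron of the RNA-binding protein gene Hnrnpk (chr13:58392779-58392886 in GRCm38, minus strand). MiR-7a-2-3p reports on Mir7-2, outside annotated genes (chr7:78888277-78888373, plus strand), and differs from miR-7a-1-3p at 3 bases (A7G, A10C and U21C). MiR-7b-5p comes from Mir7b (chr17:56242988-56243098, plus strand), also outside annotated genes.

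MiR-9-5p and miR-9-3p are opposite strands of the same hairpin, made from 3 genes. Mir9-1 (chr3:88215598-88215686) lies in an intron of the long noncoding RNA Gm3764, Mir9-2 (chr13:83738814-83738885) overlaps an exon of C130071C03Rik, and Mir9-3 (chr7:79505264-79505353) lies in an intron of Mir9-3hg. MiR-9b-3p is annotated on the opposite strand at the same 3 loci and is the reverse complement of miR-9-5p over 21 bases. Mir375 (chr1:74900658-74900721, minus strand) lies 1350 bases from Cfap65 in no annotated gene. MiR-124-3p has 3 genes, on chromosomes 14, 3 and 2, and miR-122-5p has its gene on chromosome 18.

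Some of these miRNAs shared their reads with an antisense partner. MiR-9-5p and miR-9b-3p had totals of 13205 and 13169 counts over the 6 libraries. MiR-122-5p and miR-122b-3p, reverse complements over 21 bases, had equal counts in 6 of 6 libraries (109 each in all). MiR-124-5p and miR-124b-3p, reverse complements over 21 bases, were also equal in 6 of 6 (193 each). Reads of miR-9-5p, miR-122-5p and miR-124-5p therefore could not be told from those of these partners. MiR-9-3p and its partner miR-9b-5p did not share counts in this way, with totals of 181 and 4.

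Levels are given as CPM, read counts relative to the library total, scaled with trimmed-mean (TMM) factors. A read spans a whole mature miRNA, so levels were set side by side without a length term. Library totals were 8532223 to 9287017 counts in irradiated and 7730641 to 8522928 counts in control mice. A count of 0 allows up to 3 counts, or 0.319 to 0.391 CPM in irradiated and 0.278 to 0.428 CPM in control libraries, counting error only. The thymocyte and blood-cell miRNAs listed as markers (miR-181a-5p, miR-181b-5p, miR-128-3p and both miR-142a strands) summed to 6297 to 10240 CPM in irradiated and 100400 to 167200 CPM in control libraries. The labelled tissue thus carried its defining miRNAs in every control library. They made up 12.6% to 16.5% of counts in control and 0.618% to 0.906% in irradiated libraries. Rises and falls below are changes in such relative levels, not in amounts per cell. Irradiated replicates 2 and 3 stood apart in miRNAs of striated muscle, which summed to 608, 20170 and 13420 CPM in irradiated replicates 1, 2 and 3 and to 207.3 to 487 CPM in control libraries. The same libraries were high in erythroid miRNAs, at 608, 5101 and 2026 CPM in irradiated replicates 1, 2 and 3 and 483.5 to 730.5 CPM in control libraries. Several results that could rest on those libraries are given without them as well, a choice made after the data were seen.

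The 7 miRNAs covered more than 3 orders of magnitude. In irradiated libraries the order of mean levels was miR-7a-5p (1938 ± 503.7 CPM), miR-375-3p (1087 ± 187.7), miR-9-5p (352.4 ± 156.6), miR-7b-5p (39.07 ± 4.581), miR-9-3p (4.043 ± 1.221), miR-122-5p (3.593 ± 1.497) and miR-124-3p (1.442 ± 0.541) (SD, n = 3). In control libraries the first 5 had the same order, at 3293 ± 637.7, 1068 ± 248.6, 157.1 ± 29.05, 22.33 ± 5.383 and 3.025 ± 0.496 CPM, followed by miR-122-5p (0.674 ± 0.528) and miR-124-3p (0.373 ± 0.0894) (SD, n = 3). Of neighbours in this order, miR-7a-5p and miR-375-3p did not overlap in either group, miR-9-3p and miR-122-5p overlapped in irradiated libraries, and miR-122-5p and miR-124-3p overlapped in control libraries. By rank of mean level among 1390 miRNAs, miR-7a-5p stood at 46 in irradiated and 36 in control mice, miR-375-3p at 58 in irradiated and 63 in control mice, and miR-124-3p at 478 in irradiated and 640 in control mice. MiR-7a-5p, miR-375-3p and miR-9-5p, which ranked 94 in irradiated and 135 in control mice, were thus well counted, whereas miR-122-5p and miR-124-3p had 2 to 41 counts a library.

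**Figure D1:**
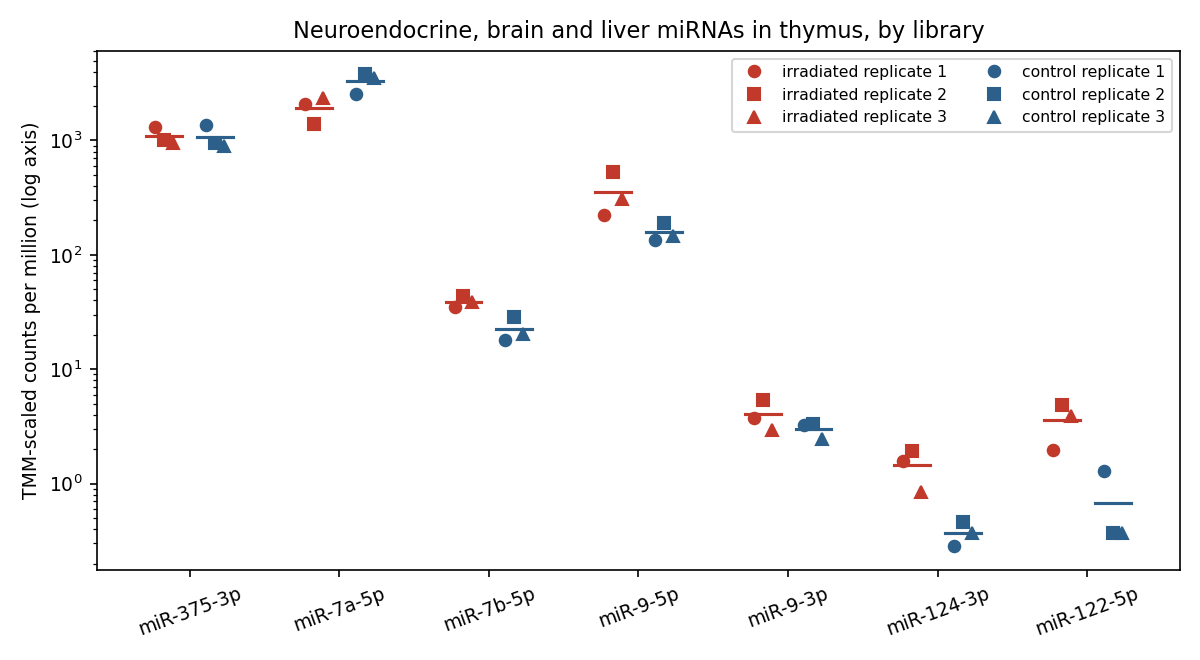
Level of each of the 7 miRNAs in each library (log axis, TMM-scaled CPM; horizontal bars are group means, n = 3). MiR-7a-5p lies lower, and miR-7b-5p, miR-9-5p, miR-124-3p and miR-122-5p higher, in every irradiated than in every control library, whereas miR-375-3p and miR-9-3p overlap.

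Whether radiation changed them was tested with edgeR's quasi-likelihood test over 519 miRNAs that passed a low-count filter, with Benjamini-Hochberg adjustment over all 519 and a threshold of 0.05. MiR-124-3p did not pass the filter. Of the other 6, 3 were higher (miR-7b-5p, miR-9-5p and miR-122-5p), 1 was lower (miR-7a-5p) and 2 did not pass (miR-375-3p and miR-9-3p). Among all tested miRNAs 61.3% passed, 27.7% higher and 33.5% lower, so a call by itself is common in these data. The median log2 change of the 6 was 0.61, against 0.01 for all tested. The 6 include miR-122-5p, which met the filter through its irradiated libraries alone. In 5 of the 7, and 4 of the 6 tested, the groups did not overlap, as in 68.6% of all tested miRNAs. Without irradiated replicates 2 and 3, that is with 1 irradiated library whose spread is assumed to be that of the controls, 3 were higher and 0 lower.

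MiR-375-3p, the islet and neuroendocrine miRNA, did not pass. It stood at 1301, 1009 and 951 CPM in irradiated replicates 1, 2 and 3, against 1353, 956 and 895 CPM in control replicates 1, 2 and 3. The groups overlapped across their range. The log2 fold change was 0.03 ± 0.26 (SE, 95% interval −0.55 to 0.60) with an edgeR adjusted p of 0.939. Its direction depended on the scaling: library totals gave −0.10, and upper-quartile factors gave 0.46. Without irradiated replicates 2 and 3 the log2 fold change was 0.47. The 7 epithelial miRNAs listed as markers (the miR-200 family, miR-203-3p and miR-205-5p) summed to 20680 to 28830 CPM in irradiated and 10190 to 13180 CPM in control libraries. Of these 7, 4 were higher, beside 27.7% of all tested miRNAs. Within libraries, miR-375-3p relative to the mean log2 count of these 7 was −1.01 ± 0.20 in irradiated and 0.16 ± 0.28 in control mice (SD, n = 3), a difference of −1.16. The groups did not overlap, and the exact two-sided permutation p of 0.1 was the smallest that 3 against 3 libraries allow (0.3 adjusted over 6 such comparisons). MiR-375-3p thus had fewer reads relative to the mean of these 7 in each irradiated than in each control library. The 7 did not move alike: miR-141-3p (0.34), miR-429-3p (0.37) and miR-200a-3p (0.63) did not pass. Ratios of miR-375-3p to single epithelial miRNAs were not tested.

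MiR-7a-5p, the most abundant of the set, was lower after irradiation. It stood at 2077, 1379 and 2358 CPM in irradiated replicates 1, 2 and 3, against 2573, 3786 and 3519 CPM in control replicates 1, 2 and 3. Replicate 2 was the lowest irradiated library and control replicate 1 the lowest control, and the groups did not overlap. The log2 fold change was −0.76 ± 0.28 (SE), with an edgeR adjusted p of 0.0348. The call was lost in 12 of 18 alternatives, among them every one that left out control replicate 1, 2 or 3 or irradiated replicate 2 or 3 (edgeR adjusted p of 0.0797 to 0.259), within 0.0091 to 0.398 over all 18. Its log2 fold change was −0.36 without irradiated replicate 2, −0.46 without irradiated replicates 2 and 3 and −0.31 with upper-quartile factors. The authors' deposited table gives −0.69 with an adjusted p of 0.0973. Relative to the epithelial miRNAs of the same library it was −0.19 ± 0.27 in irradiated and 1.79 ± 0.40 in control mice (SD, n = 3), a difference of −1.98 without overlap (exact permutation p of 0.1, 0.3 adjusted over 6).

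The opposite strand from the Hnrnpk intron was lower as well. MiR-7a-1-3p stood at 12.0, 12.1 and 9.87 CPM in irradiated replicates 1, 2 and 3, against 30.1, 46.3 and 41.8 CPM in control replicates 1, 2 and 3. It changed by −1.80 ± 0.29 (SE, edgeR adjusted p of 5.8e-04) and passed in each of its 18 alternatives. The strand specific to the other gene, miR-7a-2-3p, had a single read in irradiated replicate 1 and 0 in the other 5 libraries, which allows up to 3 counts in each. The ratio of both abundant strands of miR-7a needs no scaling. There were 173, 114.4 and 238.8 reads of miR-7a-5p per read of miR-7a-1-3p in irradiated replicates 1, 2 and 3, against 85.5, 81.8 and 84.1 in control replicates 1, 2 and 3. The control ratios lay close together, and each irradiated ratio was above them. On the log2 scale the difference was 0.99, with an exact two-sided permutation p of 0.1, the smallest possible (0.15 adjusted over 3 strand and paralogue pairs). Mir7-2 encodes the same miR-7a-5p, so a contribution from it would not be separated by this ratio.

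MiR-7b-5p moved the other way from miR-7a-5p. It stood at 34.8, 43.9 and 38.4 CPM in irradiated replicates 1, 2 and 3, against 18.1, 28.4 and 20.5 CPM in control replicates 1, 2 and 3. The lowest irradiated library was above the highest control. It rose by 0.80 ± 0.28 (SE, edgeR adjusted p of 0.0305). The call was lost in 6 of 18 alternatives, within 0.0026 to 0.261 over all 18. Among the 6 were library totals (0.60, 0.261) and leaving out control replicate 1 (0.73, 0.102) or 3 (0.84, 0.091). Without irradiated replicates 2 and 3 the rise was 0.83. Its opposite strand, miR-7b-3p, had 0 counts in all 6 libraries, which allows up to 3 in each. Within libraries there were 59.6, 31.4 and 61.3 reads of miR-7a-5p per read of miR-7b-5p in irradiated replicates 1, 2 and 3, against 142, 133.3 and 171.7 in control replicates 1, 2 and 3. The irradiated ratios were all lower, by −1.60 on the log2 scale, with an exact two-sided permutation p of 0.1, again the smallest possible (0.15 adjusted over 3 pairs). Put the other way, miR-7b-5p reads amounted to 1.63% to 3.19% of those of miR-7a-5p in irradiated and 0.582% to 0.75% in control libraries. Relative to the epithelial miRNAs miR-7b-5p differed by −0.37 with overlapping groups (exact permutation p of 0.4).

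**Figure D2:**
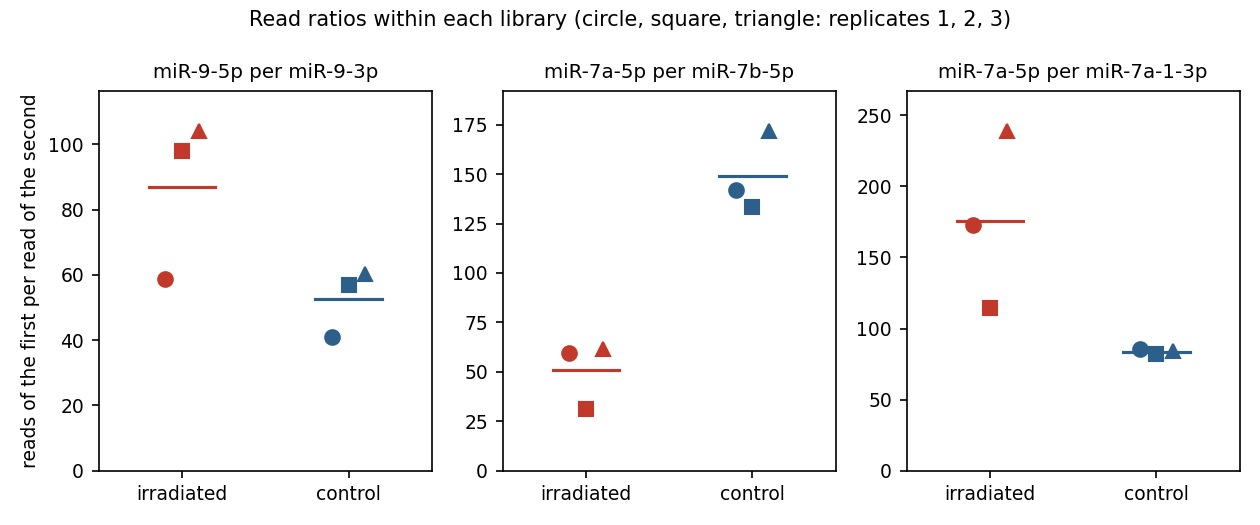
Reads of one miRNA per read of another within each library, for the miR-9 strands, for miR-7a-5p over miR-7b-5p and for the miR-7a strands (horizontal bars are means, axes start at 0). The miR-7 ratios do not overlap between groups, whereas irradiated replicate 1 lies within the control range for miR-9.

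MiR-9-5p was higher after irradiation and its sister strand did not pass. MiR-9-5p stood at 222, 526 and 309 CPM in irradiated replicates 1, 2 and 3, against 134, 190 and 148 CPM in control replicates 1, 2 and 3. All irradiated libraries were above all controls, and irradiated replicate 2 was the highest. It rose by 1.17 ± 0.35 (SE, edgeR adjusted p of 0.0147). The rise was 0.69 without irradiated replicates 2 and 3, the libraries with the highest muscle and erythroid sums. With library totals it did not pass (0.98, 0.0609), within 4.6e-04 to 0.0609 over 18 alternatives.

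MiR-9-3p stood at 3.78, 5.37 and 2.97 CPM in irradiated replicates 1, 2 and 3, against 3.28, 3.34 and 2.45 CPM in control replicates 1, 2 and 3, which rest on 28 to 45 and 20 to 36 counts. The groups overlapped, and the log2 change was 0.41 ± 0.36 (SE, edgeR adjusted p of 0.336). Without irradiated replicates 2 and 3 the log2 change was 0.51. Within libraries there were 58.6, 97.9 and 104 reads of miR-9-5p per read of miR-9-3p in irradiated replicates 1, 2 and 3, against 40.8, 56.8 and 60.2 in control replicates 1, 2 and 3. That difference of 0.71 on the log2 scale had an exact two-sided permutation p of 0.2, so the strands were not shown to differ in their change. Without irradiated replicates 2 and 3 it was 0.18. Relative to the epithelial miRNAs of the same library, miR-9-5p differed by −0.11 and miR-9-3p by −0.82 on the log2 scale (exact permutation p of 0.9 and 0.2), and the first turned to 0.33 without irradiated replicate 1 and to 0.11 without control replicate 2.

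MiR-124-3p, the neuronal miRNA, was counted at the edge of detection. It had 12, 16 and 8 counts in irradiated replicates 1, 2 and 3, against 2, 5 and 3 in control replicates 1, 2 and 3. These are 1.57, 1.91 and 0.849 CPM in irradiated and 0.285, 0.464 and 0.368 CPM in control libraries. The groups did not overlap, and mean CPM was 3.87-fold higher in irradiated mice, with an exact two-sided permutation p of 0.1, the smallest possible. It was below the filter, so it had no edgeR test here, and the authors' deposited table gives a log2 fold change of 1.99 with an adjusted p of 0.0681. In neurons miR-124-3p is the strand that accumulates. In these libraries more reads were counted for miR-124-5p, but they cannot be told from reads of miR-124b-3p, so strand use is not established. MiR-124-5p stood at 33, 31 and 38 counts in irradiated and 31, 33 and 27 counts in control replicates 1, 2 and 3, shared in full with miR-124b-3p. MiR-124-3p made up 26.7%, 34.0% and 17.4% of the reads of both strands in irradiated replicates 1, 2 and 3, against 6.06%, 13.2% and 10.0% in control replicates 1, 2 and 3. The exact binomial 95% intervals of these shares, counting error only, ran from 7.82% to 49.3% in irradiated and from 0.743% to 28.1% in control libraries. MiR-124-5p did not pass (0.16 ± 0.33 SE, edgeR adjusted p of 0.680).

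MiR-122-5p, the hepatocyte miRNA, was higher after irradiation, from few reads, with the largest fold change of the 6 tested. It had 15, 41 and 37 counts in irradiated replicates 1, 2 and 3, against 9, 4 and 3 in control replicates 1, 2 and 3. These are 1.96, 4.89 and 3.93 CPM in irradiated and 1.28, 0.371 and 0.368 CPM in control libraries. The groups did not overlap, and irradiated replicate 1 was the lowest irradiated and control replicate 1 the highest control library. It rose by 2.47 ± 0.58 on the log2 scale (SE, edgeR adjusted p of 0.0046). It met the low-count filter through its irradiated libraries alone, so its place among the tested miRNAs depended on the group where it was high. With no low-count filter the rise was 2.39. It passed in all 17 alternatives that gave a value, within 1.9e-04 to 0.0365. The rise was 3.27 without control replicate 1 (0.0025) and 1.81 without irradiated replicates 2 and 3. Its opposite strand, miR-122-3p, had 0 to 4 counts in irradiated and 0 to 4 in control libraries. Relative to the epithelial miRNAs of the same library, miR-122-5p was 1.14 higher on the log2 scale with overlapping groups (exact permutation p of 0.2) and 0.10 higher without irradiated replicates 2 and 3.

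Striated-muscle and erythroid sums were set beside these results by library, and their part in them was not tested. Irradiated replicate 2 was the highest library for miR-7b-5p, miR-9-5p, miR-9-3p, miR-124-3p and miR-122-5p, and it was also the highest for both marker sums. It was the lowest for miR-7a-5p. Irradiated replicate 3, also high in both sums, stood above irradiated replicate 1 for miR-7b-5p, miR-9-5p and miR-122-5p. It stood below irradiated replicate 1 for miR-375-3p, miR-9-3p (2.97 against 3.78 CPM) and miR-124-3p (0.849 against 1.57 CPM). For miR-7a-5p it was the highest irradiated library (2358 CPM). Of the 7 striated-muscle miRNAs, 4 were tested and 3 were higher, and miR-208a-3p was at 0 counts in irradiated replicate 1 and in control replicates 1 and 2. Of the 4 erythroid miRNAs in the table, 3 were higher. Beside these lists, 27.7% of all tested miRNAs were higher. Without irradiated replicates 2 and 3 the log2 changes of miR-7b-5p, miR-9-5p and miR-122-5p were 0.83, 0.69 and 1.81. That fit rests on irradiated replicate 1, whose muscle sum of 608 CPM was itself above the 207.3 to 487 CPM of the controls. It therefore does not separate these miRNAs from the muscle signal.

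**Figure D3:**
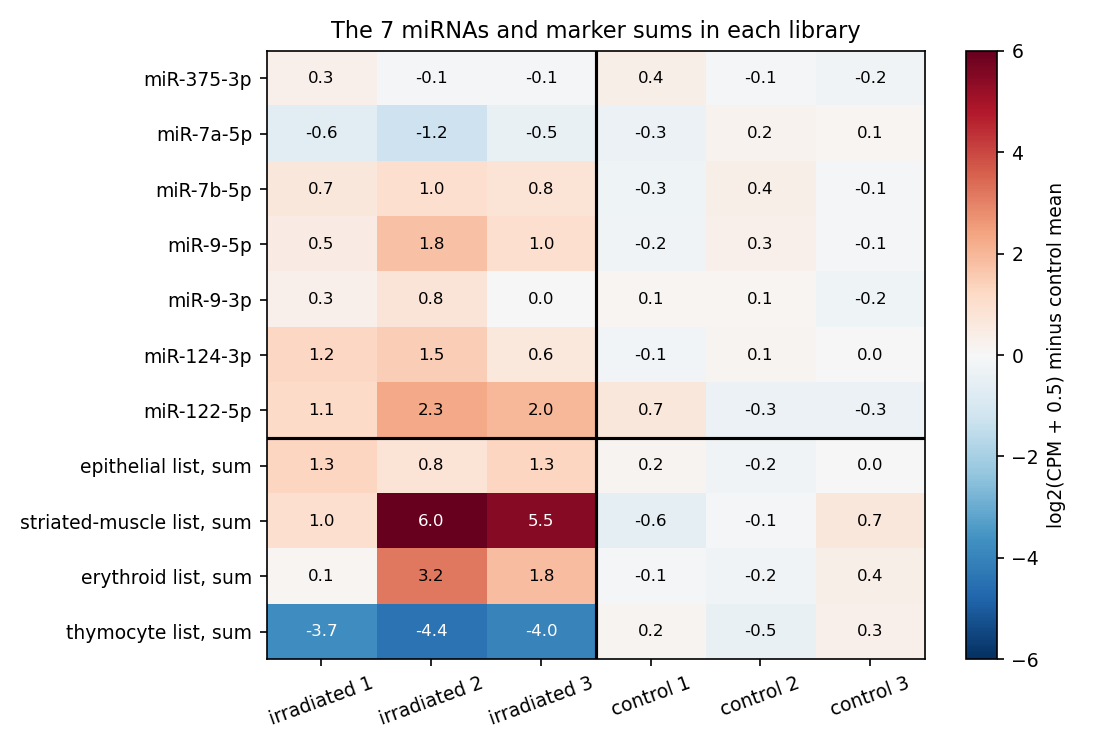
Difference of each log2 level (CPM + 0.5) from the control mean for the 7 miRNAs and for the summed epithelial, striated-muscle, erythroid and thymocyte markers, by library. The muscle sum is 6.05 and 5.46 above the control mean in irradiated replicates 2 and 3 and 1.00 above it in irradiated replicate 1, while miR-375-3p stays within 0.36 of it in every library.

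Of 13 other miRNAs listed for the nervous system, 8 were tested, 3 were higher, 1 was lower and 4 did not pass, beside 27.7% higher and 33.5% lower over all tested. The median log2 change of the 8 was 0.53, and the 1 that was lower was miR-219a-5p. MiR-218-5p, the most abundant, which is made in motor neurons and also in endothelium, stood at 401, 881 and 396 CPM in irradiated and 138, 207 and 191 CPM in control replicates 1, 2 and 3, without overlap. It rose by 1.65 ± 0.36 (SE, edgeR adjusted p of 0.0036) and by 1.37 without irradiated replicates 2 and 3. MiR-138-5p rose by 0.87 ± 0.34 (SE, edgeR adjusted p of 0.0475), with 8.78 ± 2.33 CPM in irradiated and 4.77 ± 0.905 CPM in control mice (SD, n = 3). Its call was lost in 9 of 17 alternatives, among them each in which irradiated replicate 2 or control replicate 1, 2 or 3 was left out (0.0571 to 0.122), and with library totals (0.247). MiR-338-3p, named after its values were seen, has the same counts as its antisense partner miR-3065-5p in 6 of 6 libraries. It rose by 1.72 ± 0.49 (SE, edgeR adjusted p of 0.0125) and by 0.995 without irradiated replicates 2 and 3, where it did not pass (edgeR adjusted p of 0.0716). It did not pass without control replicate 2 either (1.40, 0.0692). MiR-219a-5p fell to 0.968 ± 0.283 CPM in irradiated mice, against 10.99 ± 3.39 CPM in control mice (SD, n = 3). Its log2 change was −3.48 ± 0.42 (SE, edgeR adjusted p of 9.9e-05). MiR-129-5p, with totals of 1501 counts beside 1477 for its antisense partner miR-129b-3p, did not pass (0.04 ± 0.34 SE, edgeR adjusted p of 0.926). With irradiated replicate 1 as the only irradiated library, 1 of the 8 was higher and 1 lower.

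Of the 6 miRNAs listed for endocrine tissue, pancreas and pigmented epithelia, 5 were tested, 2 were higher, 1 was lower and 2 did not pass. Over all tested miRNAs 27.7% were higher and 33.5% lower. The median log2 change of the 5 was 0.51. MiR-204-5p and miR-211-5p are close relatives that went in opposite directions. MiR-204-5p stood at 120, 103 and 146 CPM in irradiated and 55.5, 50.2 and 50.3 CPM in control replicates 1, 2 and 3, a change of 1.24 ± 0.26 (SE, edgeR adjusted p of 0.0027). MiR-211-5p stood at 15.5, 7.64 and 9.34 CPM in irradiated and 38.2, 31.6 and 38.9 CPM in control replicates 1, 2 and 3, a change of −1.74 ± 0.33 (SE, edgeR adjusted p of 0.0016). Neither pair of groups overlapped, and without irradiated replicates 2 and 3 the changes of miR-204-5p and miR-211-5p were 1.40 and −1.02. The acinar miRNA miR-217-5p rose by 1.33 ± 0.45 (SE, edgeR adjusted p of 0.0263), but did not pass in 7 of 17 alternatives, among them with library totals (1.14, 0.0679), without irradiated replicate 1 (0.94, 0.0629) or without control replicate 1 (0.0852) or 2 (0.0908). Without irradiated replicates 2 and 3 miR-217-5p rose by 2.11. MiR-184-3p did not pass (0.51, edgeR adjusted p of 0.153).

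**Figure D4:**
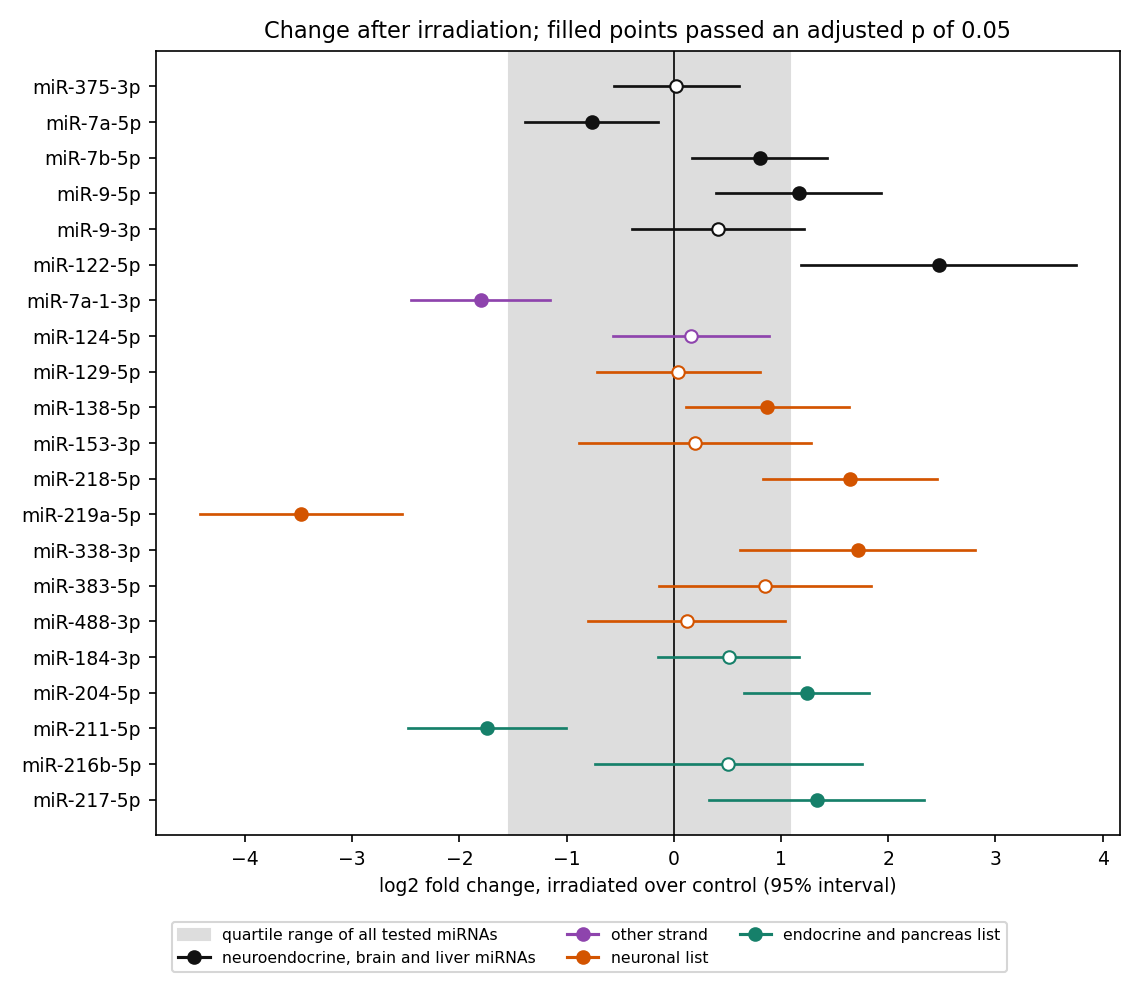
Log2 fold change of irradiated over control with 95% intervals for the tested neuroendocrine, brain and liver miRNAs, their opposite strands and the neuronal and endocrine lists (filled points passed an edgeR adjusted p of 0.05; grey spans the quartiles of 519 tested miRNAs, −1.54 to 1.08). MiR-122-5p, miR-9-5p, miR-218-5p, miR-338-3p, miR-204-5p and miR-217-5p lie right of that span and miR-219a-5p, miR-211-5p and miR-7a-1-3p left of it.

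The miRNAs with the most similar pattern over the 6 libraries were found by the root mean square difference of centred log2 CPM. For miR-375-3p they were miR-124-5p (0.14, the same value for miR-124b-3p, which has its reads) and miR-27a-3p (0.18), neither of which passed. For miR-7a-5p they were both strands of miR-362 (0.10 and 0.15), and miR-212-3p (0.16). The miR-362 strands fell by 0.84 and 0.78, calls that were lost in 11 of 18 and 13 of 18 alternatives (edgeR adjusted p up to 0.252 and 0.317). For miR-7b-5p they were miR-138-5p (0.14), miR-511-3p (0.16) and miR-221-5p (0.18), and for miR-9-3p miR-3095-3p (0.15), miR-292b-3p (0.16) and miR-3074-5p (0.18). MiR-9-5p was matched, beside miR-9b-3p with which it shares reads, by miR-224-5p (0.15) and miR-24-2-5p (0.20). Of these, miR-3074-5p had 244506 counts over the 6 libraries, beside 244727 for its antisense partner miR-24-3p. MiR-24-2-5p had 16363, beside 16202 for its antisense partner miR-3074-2-3p. MiR-122-5p, beside the identical miR-122b-3p, had no close match, with miR-126b-5p at 0.32 and miR-125a-3p at 0.42. MiR-126b-5p, with 1452 counts, is the reverse complement over 19 bases of miR-126a-3p, which had 596161.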

How the data were processed

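Per the labels' protocols, thymus RNA was isolated with TRIzol and made into libraries with NEBNext kits, and the molecule is labelled polyA RNA. The authors deposited read counts per mature miRNA, unnormalized per the file headers. Their log2 fold changes and adjusted p-values stand in the same deposited table, and the submitters' processing notes name DESeq2 1.10.1. Neither aligner, counting tool, strand setting nor build was given in the sources used here. Another 6 columns of counts, of samples outside the labels, were left out, as was a companion table with the same counts.

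For this report edgeR 4.0.16 (R 4.3.3) was run on all 6 libraries (TMM factors of 0.823 to 1.39, filterByExpr defaults, robust quasi-likelihood fit, Benjamini-Hochberg adjustment over all 519 tested). The procedure was also run on simulated data with a capped spread and equally many rises and falls. That run does not test the scaling or error rate in these data. Ratios within libraries used counts plus 1 and exact permutation tests. Alternatives were other scalings, filters, thresholds, DESeq2 1.42.0, limma 3.58.1 voom, a replicate block and leaving out libraries. Loci come from GENCODE (GRCm38) and sequences from RefSeq. No replicate pair was a copy. The labels state no pairing of same-numbered libraries, so numbers were not taken as pairs. Correlations between so few libraries cannot decide this. The members and lists were chosen with earlier results of these data known. Named miRNAs were the 7 and their opposite strands, up to 4 of the most abundant of each list, and the 3 nearest patterns. One listed strand, miR-375-5p, and miR-486b-5p were not analysed here.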

Additional observations from a re-analysis of the deposited data

How the results depend on the processing

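Of 519 miRNAs 318 passed, 144 higher and 174 lower (45.3% higher); the share higher was 59.7% with upper-quartile factors, 53.4% without the most abundant miRNA and 38.4% with library totals. A mean of at least 10 CPM left 210 calls among 313 tested, 87 higher, and an adjusted p of 0.01 left 87 higher. The median log2 change of all tested was 0.01, against −0.13 with library totals, 0.12 under median-of-ratios factors, 0.44 with upper-quartile factors, 0.22 without the most abundant miRNA and −0.20 with the mean of 10 CPM.

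MiR-375-3p turned to −0.10 with library totals, −0.031 with no low-count filter and −0.23 when a mean of 10 CPM was required, and ranged from −0.15 to 0.32 with 1 library left out. MiR-7a-5p no longer passed under median-of-ratios factors (−0.64), upper-quartile factors (−0.31), DESeq2 (−0.69), an adjusted p of 0.01 (−0.76), without the most abundant miRNA (−0.56) and without irradiated replicates 2 and 3 (−0.46), an alternative added after the data were seen, and ranged from −0.83 to −0.36 with 1 library left out. MiR-7b-5p no longer passed with library totals (0.60), no filter (0.75), a required mean of 10 CPM (0.54) and an adjusted p of 0.01 (0.80), and ranged from 0.73 to 1.01 with 1 library left out. MiR-9-5p no longer passed with library totals (0.98) and an adjusted p of 0.01 (1.17). The causes were not tested. The difference of miR-9-5p from the epithelial mean ranged from −0.60 to 0.33 with 1 library left out.

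Among listed miRNAs that had not passed, some changed sign. MiR-129-5p was at −0.079 with library totals, −0.023 with no filter, −0.21 with the mean of 10 CPM and −0.28 without irradiated replicates 2 and 3, and −0.089 to 0.36 with 1 library left out. MiR-153-3p was at −0.024 and miR-488-3p at −0.029 with library totals, and miR-488-3p at −0.031 without irradiated replicates 2 and 3. With 1 library left out they ranged from −0.17 to 0.72 and from −0.017 to 0.51. MiR-192-5p was at 0.12 with upper-quartile factors. MiR-429-3p ranged from −0.14 to 0.72. MiR-27a-3p was at −0.045 with library totals and −0.18 with the mean of 10 CPM, and ranged from −0.14 to 0.36, and miR-292b-3p was at −0.029 with library totals.

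With the replicate number as a block, miR-7a-5p was at −0.78 with an edgeR adjusted p of 0.0518, and no other call among the 7 changed. Deviations of same-numbered libraries correlated at 0.124, −0.0176 and 0.248, beside −0.271 to 0.11 for libraries of different number. So few pairs cannot show whether the numbers mark a pairing, and the labels state none.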

Other observations

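Among miRNAs shared by liver, gut and kidney, miR-192-5p, miR-194-5p and miR-215-5p, 0 of 3 passed in edgeR (0 of 3 also at an unadjusted p under 0.05, and 0 of 3 with DESeq2 and with limma-voom). Their levels were 1468 ± 207.1, 211.9 ± 57.5 and 507.7 ± 202.7 CPM in irradiated mice and 1835 ± 318.1, 312.8 ± 52.8 and 347 ± 92.1 CPM in control mice (SD, n = 3). MiR-215-5p passed as higher with upper-quartile factors (1.03), without irradiated replicate 2 (1.00) and without irradiated replicates 2 and 3 (1.26). MiR-194-5p passed as lower without irradiated replicate 1 (−0.76) and, with miR-192-5p, when a mean of 10 CPM was required (−0.82 and −0.58). The sensory and neuroendocrine cluster of miR-183-5p, miR-96-5p and miR-182-5p summed to 2264 to 4003 CPM in irradiated and 1632 to 2172 CPM in control libraries. Of these, miR-182-5p rose by 0.80 ± 0.27 (SE, edgeR adjusted p of 0.0264) and the other 2 did not pass (0.50 and 0.59). All 3 were highest in irradiated replicate 1, the irradiated library lowest in muscle and erythroid miRNAs, and with it as the only irradiated library all 3 were higher. The call for miR-182-5p was lost when any 1 library other than irradiated replicate 2 was left out (edgeR adjusted p of 0.0527 to 0.112).

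The antisense pairs described for miR-9, miR-122 and miR-124 were part of a wider pattern. The table holds 46 pairs of mature miRNAs that are reverse complements over at least 18 bases. In 39 of them at least 1 member had 10 or more counts over the 6 libraries. The smaller total was at least 90% of the larger in 20 of those 39, and 6 of the 39 were equal in every library. MiR-142a-3p and miR-142b had 214703 counts each, miR-338-3p and miR-3065-5p 299 each, and miR-1a-3p and miR-1b-5p 298766 and 298463. Other pairs stood far apart, such as miR-203-3p and miR-203b-5p with 116957 and 14380 counts.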
